A study of Mus musculus with 6 samples.

Results

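The immediate early and heat shock genes described here are 39 genes that mammalian cells transcribe within minutes to hours of a stimulus or of protein damage. They were chosen by their symbols, not by their values, from the 51826 gene symbols counted in 6 RNA-seq libraries of sorted mouse mammary basal cells. Earlier results of these data were known when they were chosen. All 39 passed the filter on low counts, among 13873 genes tested. They comprise 9 AP-1 and related bZIP factors, 3 Egr factors, 3 Nr4a receptors, 4 dual-specificity phosphatases, 4 RNA-binding and antiproliferative regulators, 3 Klf factors, 7 other early response genes and 6 heat shock genes.

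The compared fractions were GFPpos basal cells and GFPneg basal cells, with 3 libraries each. All 6 libraries came from C57B6/N mice of the genotype SMAcreERT2/N1ICD, given tamoxifen on postnatal day 21, and the cells were isolated 72 h later, on day 24. SMAcreERT2 is a tamoxifen-dependent Cre recombinase driven by the smooth muscle actin promoter, which is active in basal (myoepithelial) cells, and N1ICD is the intracellular, signalling part of the Notch1 receptor. Both fractions of a replicate were sorted from 1 pool of 2 to 3 mice, so the replicate number pairs a GFPpos with a GFPneg library. The GFPneg cells carry the same alleles and received the same drug, and cells without the N1ICD allele or without tamoxifen were not analysed here.

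Immediate early genes are switched on by transcription factors that already sit in the resting cell, without new protein synthesis. Serum response factor with its Elk partners and CREB drive many of them downstream of MAP kinases, and several of their products, the Dusp phosphatases and the Zfp36 proteins among them, shut the response off again. Heat shock genes are driven by HSF1 through heat shock elements and encode chaperones that refold damaged proteins. In tissue that is minced, digested with enzymes and sorted, both sets are also known to be induced by the dissociation itself, and its part in the levels given here was not tested.

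The libraries held 10549065, 11272213 and 15825199 gene counts in GFPpos replicates 1 to 3, against 611465, 16043492 and 9912610 in GFPneg replicates 1 to 3. GFPneg replicate 1 stood apart. In that library 69.2% of the counts fell on 5 ribosomal or mitochondrial rRNA features, against 22.7% to 34.7% in the others, and 188291 counts remained outside them. A single count was worth 3.28 CPM (counts scaled by library size and TMM factor) there and 0.0513 to 0.0911 CPM elsewhere. Its log2 CPM correlated with the other libraries at 0.616 to 0.651, where the closest other pair reached 0.928. The 39 genes had a median of 75 counts there (0 to 411), 25 of them had fewer than 100, and 18 had their lowest level of all 6 libraries in it while 5 had their highest. Results are therefore given with and without that library.

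Notch1, part of which the transgene encodes, was at 506, 459 and 423 CPM in GFPpos cells, against 105, 177 and 267 CPM in GFPneg cells. The groups did not overlap, and the log2 fold change was 1.32 (SE 0.41) with an adjusted p of 0.625 in edgeR's quasi-likelihood test. The basal markers were abundant in both fractions, with a sum over 9 genes of 6450 to 7338 CPM in GFPpos cells and 8505 to 13814 CPM in GFPneg cells, and all 9 had a lower mean in GFPpos cells. The 10 luminal markers summed to 476 to 661 CPM in GFPpos cells and 200 to 414 CPM in GFPneg cells. Kit, Krt19 and Esr1 lay higher in every GFPpos library than in any GFPneg library, and the other luminal markers overlapped. Kit was at 61.7, 92.1 and 145 CPM in GFPpos cells, against 16.4, 4.52 and 11.0 CPM in GFPneg cells. The 7 fibroblast markers summed to 239 to 380 CPM in GFPpos cells and 689 to 1681 CPM in GFPneg cells, with 6 of 7 lower on average in GFPpos cells and Lum at 0 in all 6 libraries. The 7 endothelial markers summed to 675 to 1992 CPM in GFPpos cells and 512 to 1134 CPM in GFPneg cells, and the 6 pericyte markers to 160 to 612 CPM in GFPpos cells and 42.6 to 138 CPM in GFPneg cells. Among the pericyte markers Notch3 and Cspg4 lay higher in every GFPpos library, and the others overlapped. Notch3 was at 155, 101 and 279 CPM in GFPpos cells, against 42.6, 21.7 and 61.5 CPM in GFPneg cells. It made up the whole pericyte sum in GFPneg replicate 1. The 7 immune markers summed to 5.62 to 18.3 CPM in GFPpos cells and 7.08 to 32.8 CPM in GFPneg cells, with Adgre1 and Csf1r at 0 in all 6 libraries and Itgam at 0 in the 3 GFPpos libraries. No tested marker gene passed an adjusted p of 0.05, and the part of these differences in the levels of the 39 genes was not tested. In bulk samples, fewer cells of a type and less RNA per cell cannot be told apart.

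The question asked of the early genes was whether their level differed between GFPpos and GFPneg basal cells. Most of the 39 genes were lower in GFPpos cells in replicates 2 and 3 and showed no such common direction in replicate 1. In the GFPpos libraries they made up 2.39%, 2.13% and 2.43% of the counts outside the 5 abundant features. In the GFPneg libraries they made up 2.09%, 3.03% and 3.19%. The first of these, from the shallow library, has an exact 95% interval of 2.03% to 2.16%, which covers counting error only. The groups thus overlapped through GFPneg replicate 1, and the other 2 GFPneg libraries lay above all GFPpos libraries.

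Within replicate 2, 34 of the 39 genes were lower in the GFPpos library, with a median log2 ratio of CPM + 1 of -0.55, whereas 52.3% of all genes tested were lower, with a median of -0.03. Within replicate 3, 34 of 39 were again lower, with a median of -0.55, beside 48.0% of all genes and a median of 0.05. Within replicate 1, 16 of 39 were lower and the median was 0.25, beside 24.5% of all genes and a median of 1.34. The plot of cumulative shares sets these distributions side by side. The share of all genes in replicate 1 depends on the depth of its GFPneg library, where 7454 of the 51826 gene symbols had a count. A gene at 0 there cannot be lower in the GFPpos library. Since the early genes are abundant, they were also set beside the 2863 genes that averaged at least 50 CPM, an alternative chosen after seeing the data. Of those, 38.8%, 47.3% and 56.9% were lower in GFPpos cells in replicates 1, 2 and 3, with medians of 0.42, 0.02 and -0.14. In total 32 of the 39 genes (82.1%) were lower in both replicates 2 and 3, beside 29.6% of all genes tested and 34.8% of the abundant ones. The 7 exceptions were Dusp2, Dusp5, Dusp6, Btg1, Klf2, Ier3 and Ier5.

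**Figure D1:**
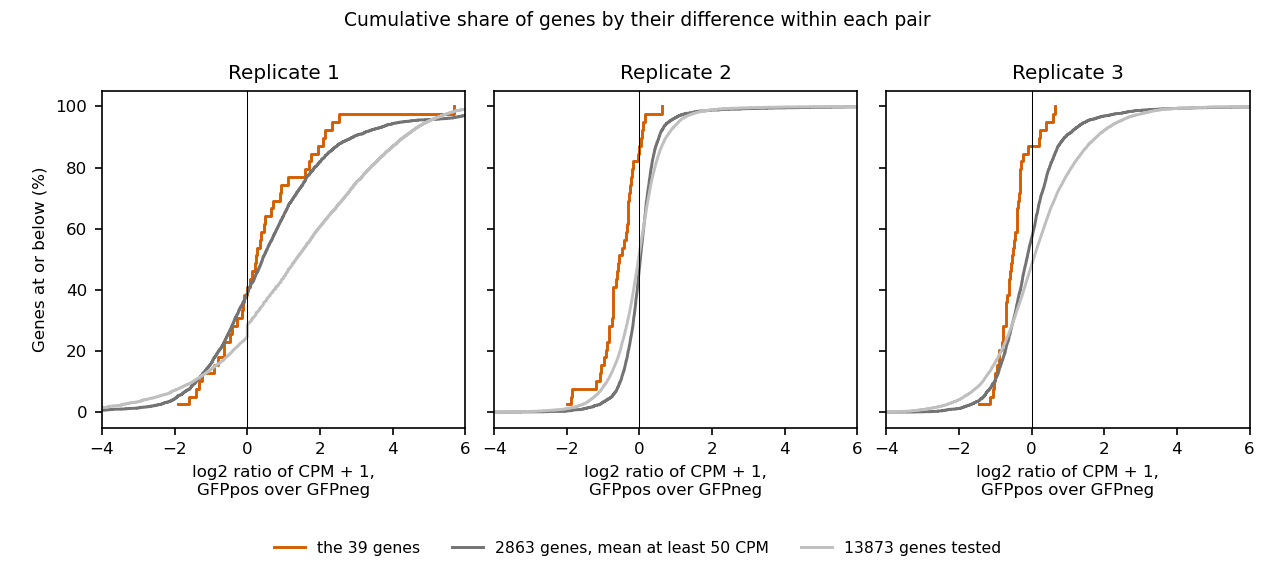
Cumulative share of genes (%) by log2 ratio of CPM + 1, GFPpos over GFPneg, within replicates 1, 2 and 3, for the 39 genes (orange), the 2863 genes with a mean of at least 50 CPM (dark grey) and the 13873 genes tested (light grey). The orange curve crosses 0 at 41.0% in replicate 1 and at 87.2% in replicates 2 and 3.

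Across all 6 libraries none of the 39 genes passed an adjusted p of 0.05 in edgeR, where 0.0649% of all genes did (9 of 13873). At an unadjusted p under 0.05 there were 2, Klf4 and Ier2, which is 5.13% of the list beside 5.26% of all genes and so near the background. DESeq2 called 0 of the 39, with 1 at an unadjusted p under 0.05. With the replicate as a block edgeR called 0, with 1 unadjusted, and DESeq2 called 0, with 0 unadjusted. The fitted log2 fold change, GFPpos over GFPneg, was negative for 33 of 39 genes (84.6%), with a median of -0.35, beside 42.5% of all genes and a median of 0.15. Scaling by library size alone moved the median of all genes to 0.31 and that of the 39 genes to -0.12, with 28 negative. In the fits without a block the p-values measure the spread between libraries of the same fraction, each from a different pool of mice. Here that spread includes the shallow library, GFPneg replicate 1. With the replicate block the p-values measure the spread of the pair differences. In every fit a gene's spread was estimated partly from that of other genes.

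Without GFPneg replicate 1, again 0 of the 39 genes passed an adjusted p of 0.05, where 0.602% of all genes did. At an unadjusted p under 0.05 there were 11 (28.2%), beside 9.13% of all genes: Fos, Fosb, Atf3, Egr2, Nr4a1, Nr4a2, Dusp1, Zfp36, Btg2 and Klf4, all lower in GFPpos cells, and Btg1, which was higher. The share of all genes here was not matched for abundance. The fold change was negative for 34 genes, with a median of -0.45 beside 0.04 over all genes. With the replicate as a block and without replicate 1, which leaves 2 pairs, Nr4a2 and Klf4 passed the adjusted test, both lower in GFPpos cells. That is 5.13% of the list, beside 3.92% of all genes called in either direction and 1.41% called lower. Of the 2863 genes that averaged at least 50 CPM, 3.46% were called lower, which is nearer to the share of the list. In the same fit 36 of 39 fold changes were negative, with a median of -0.55 beside 0.03 over all genes. With 2 pairs, its p-values rest largely on spread estimated across genes, not on the pairs of each gene. The SE was 0.37 for Klf2, with log2 pair ratios of -1.87 and 0.20, and 0.32 for Jund, with -0.17 and -0.23.

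Groups that did not overlap were also counted. With 6 libraries, Klf4, Ier2 and Gadd45b were lower in every GFPpos library than in any GFPneg library, 7.69% of the list beside 3.63% of all genes. Only Btg1 was higher in every GFPpos library, 2.56% beside 9.53% of all genes. Both shares of all genes depend on the depth of GFPneg replicate 1. Only 7454 of the 51826 gene symbols had a count there, fewer than the 13873 tested. A gene at 0 there cannot be lower in every GFPpos library, and 1 of the 39 genes was at 0. These 6-library shares therefore do not show that the list differs from all genes. Without GFPneg replicate 1, 14 of the 39 (35.9%) lay wholly lower in GFPpos cells, beside 13.6% of all genes: Fos, Junb, Atf3, Egr2, Dusp1, Zfp36, Zfp36l1, Btg2, Klf4, Klf6, Ier2, Socs3, Rhob and Gadd45b. Wholly higher were 2, Btg1 and Ier5 (5.13%), beside 12.6% of all genes. These shares of all genes were not matched for abundance, and the genes that averaged at least 50 CPM were not counted in this way.

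**Figure D2:**
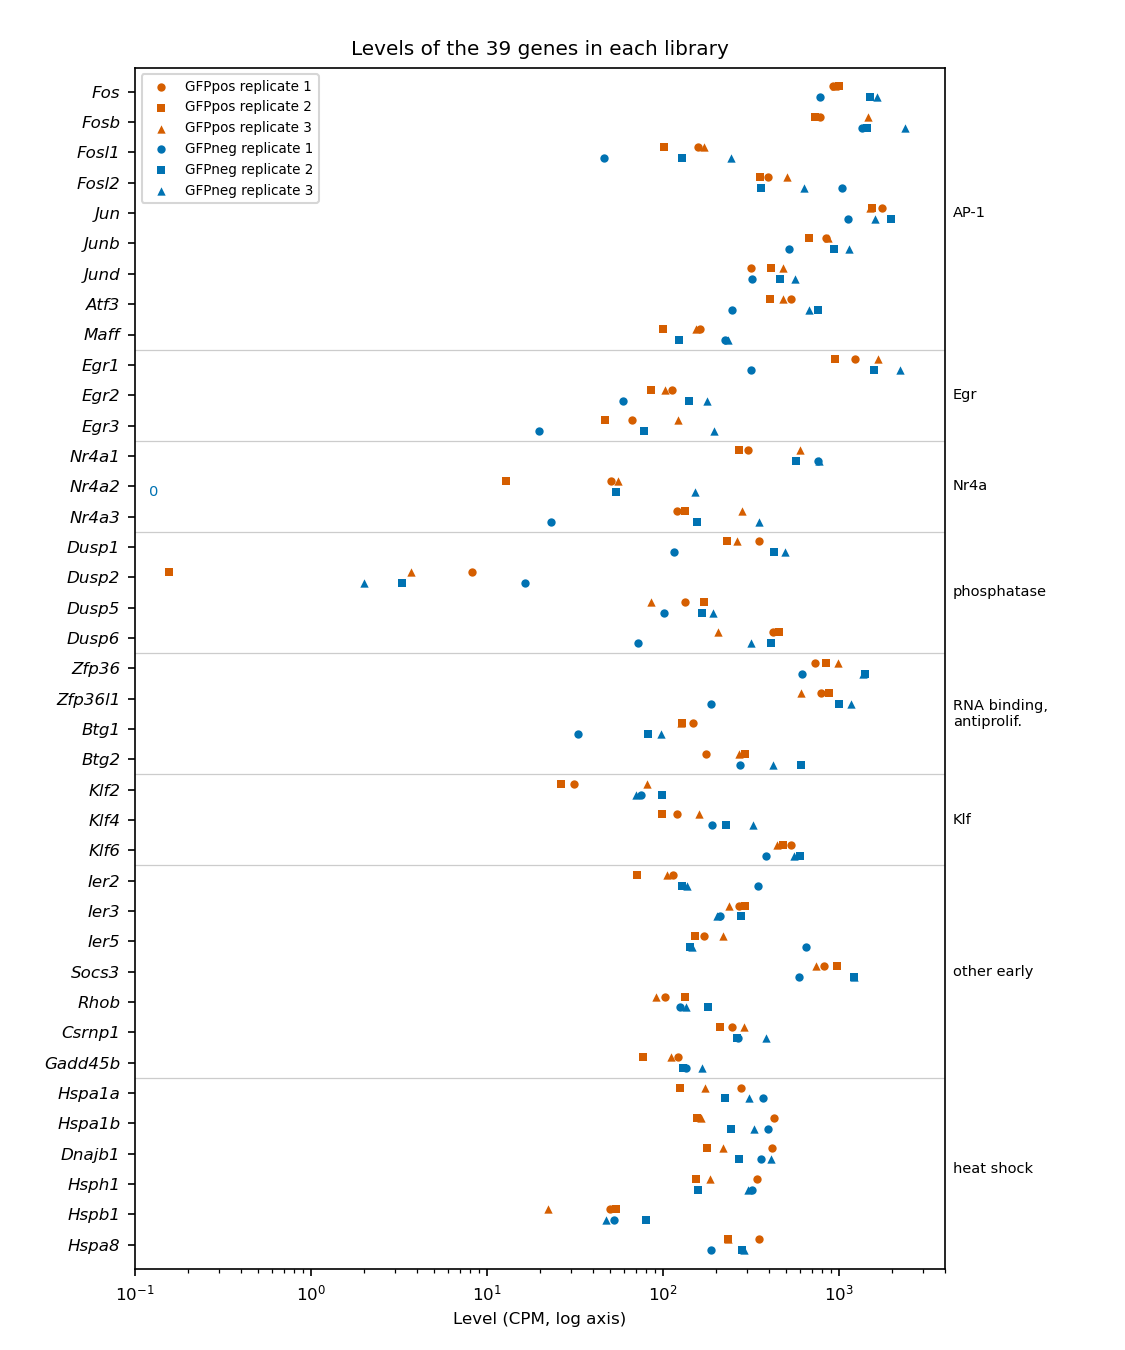
Level of each of the 39 genes (CPM, log axis) in the 3 GFPpos and the 3 GFPneg libraries, grouped by role, with GFPpos in orange, GFPneg in blue, and replicates 1, 2 and 3 as circles, squares and triangles; the level of 0 of Nr4a2 in GFPneg replicate 1 is printed as 0 at the left edge. Jun lies between 1121 and 1983 CPM in all 6 libraries, and Dusp2 lies lowest, with GFPpos libraries at 8.25, 0.156 and 3.69 CPM.

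The AP-1 genes encode the subunits that pair to form AP-1, a dimer of Fos and Jun family proteins that binds the DNA motif TGANTCA. Per kilobase of exon several of them were among the most abundant transcripts of these cells. Fosl1, Maff and Fosl2 stood lower, at ranks 305, 416 and 526 of 13539 genes in GFPpos cells. Jun stood at 501 ± 41.6 CPM per kb in GFPpos cells and 492 ± 135 CPM per kb in GFPneg cells (SD, n = 3 each), rank 32 and rank 42 of 13539 genes. The 39 genes had a median of 70.3 CPM per kb in GFPpos cells and 95.7 CPM per kb in GFPneg cells, beside 3.78 and 3.21 CPM per kb over all genes, and 10 of them in GFPpos cells and 12 in GFPneg cells were among the 100 most abundant. All 9 AP-1 and related genes were lower in GFPpos cells in replicates 2 and 3, and 4 of 9 were lower in replicate 1.

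Fos (chr12:85473890-85477273, mm10), the founding early gene and a partner of Jun, was at 927, 996 and 952 CPM in GFPpos cells, against 777, 1493 and 1652 CPM in GFPneg cells. The 3 GFPpos libraries were close together (959 ± 34.7 CPM) and GFPneg replicate 1 lay below them, while the other GFPneg libraries lay above. The log2 fold change was -0.45 (SE 0.38, adjusted p = 1), and -0.69 (SE 0.25, adjusted p = 0.372) without GFPneg replicate 1. Fosb, a second Fos protein, was at 776, 733 and 1465 CPM in GFPpos cells, against 1348, 1438 and 2377 CPM in GFPneg cells. It was lower in the GFPpos library of all 3 pairs although the groups overlapped, with a log2 fold change of -0.80 (SE 0.41, adjusted p = 1). Fosl2, which lacks the strong activation domain of Fos, was at 395, 356 and 505 CPM in GFPpos cells, against 1046, 361 and 636 CPM in GFPneg cells, so its highest level was in the shallow library. Fosl1, a Fos-related protein, was at 158, 101 and 170 CPM in GFPpos cells, against 45.9, 127 and 245 CPM in GFPneg cells, lowest in that same library.

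Jun, the main activating partner, was at 1748, 1536 and 1505 CPM in GFPpos cells, against 1121, 1983 and 1600 CPM in GFPneg cells. The groups overlapped and their means were 1596 ± 133 CPM in GFPpos cells and 1568 ± 432 CPM in GFPneg cells, with a log2 fold change of 0.02 (SE 0.37, adjusted p = 1). Junb, a weaker activator, was at 841, 674 and 862 CPM in GFPpos cells, against 518, 933 and 1138 CPM in GFPneg cells. Jund, the least inducible Jun protein, was at 317, 413 and 481 CPM in GFPpos cells, against 321, 464 and 565 CPM in GFPneg cells. Junb and Jund had log2 fold changes of -0.13 (SE 0.39) and -0.16 (SE 0.38), which turned to 0.02 and 0.03 under scaling by library size alone. Atf3, a stress-induced bZIP factor that often represses, was at 534, 403 and 483 CPM in GFPpos cells, against 246, 764 and 675 CPM in GFPneg cells. Its GFPneg replicates 2 and 3 exceeded all GFPpos libraries, and the log2 fold change without GFPneg replicate 1 was -0.59 (SE 0.26, adjusted p = 0.517). Maff, a small Maf protein without an activation domain, was at 162, 100 and 154 CPM in GFPpos cells, against 226, 123 and 234 CPM in GFPneg cells, lower in all 3 pairs.

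The Egr genes encode zinc finger factors induced through serum response factor. Egr1 was at 1234, 953 and 1675 CPM in GFPpos cells, against 318, 1574 and 2213 CPM in GFPneg cells. The spread within GFPneg cells was wider than the difference between groups, and the means were 1287 ± 364 CPM in GFPpos cells and 1368 ± 964 CPM in GFPneg cells. The ratio of GFPpos to GFPneg was 3.88 in replicate 1 (exact 95% interval 3.18 to 4.79), 0.605 in replicate 2 and 0.757 in replicate 3. Egr2 was at 112, 85.0 and 103 CPM in GFPpos cells, against 59.0, 141 and 177 CPM in GFPneg cells. Egr3 was at 66.5, 46.8 and 122 CPM in GFPpos cells, against 19.7, 78.2 and 195 CPM in GFPneg cells. All 3 thus had the same arrangement, lowest in GFPneg replicate 1 and lower in the GFPpos library of replicates 2 and 3. Their log2 fold changes were -0.09 (SE 0.53) for Egr1, -0.35 (SE 0.46) for Egr2 and -0.36 (SE 0.63) for Egr3, each with an adjusted p of 1, and that of Egr1 was 0.22 (SE 0.45) with the replicate block.

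The Nr4a genes encode orphan nuclear receptors whose activity is set largely by how much of them is made. Nr4a1 was at 303, 270 and 600 CPM in GFPpos cells, against 757, 573 and 770 CPM in GFPneg cells. It was lower in the GFPpos library of all 3 pairs, and GFPpos replicate 3 lay above GFPneg replicate 2, so the groups overlapped. The log2 fold change was -0.84 (SE 0.41, adjusted p = 0.988). Nr4a3 was at 120, 133 and 283 CPM in GFPpos cells, against 23.0, 155 and 352 CPM in GFPneg cells, and its log2 fold change of -0.02 (SE 0.64) was 0.06 under scaling by library size alone.

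Nr4a2 (chr2:57106830-57124003, mm10) had 561, 165 and 1064 counts in GFPpos cells, against 0, 1051 and 1663 counts in GFPneg cells. These correspond to 50.8, 12.8 and 55.2 CPM in GFPpos cells, against 0, 54.0 and 152 CPM in GFPneg cells. The groups overlapped, since the GFPneg libraries included both the lowest and the highest of the 6. The log2 fold change over 6 libraries was -0.86 (SE 0.87, adjusted p = 1). In replicates 2 and 3 the ratio of GFPpos to GFPneg was 0.238 (0.201 to 0.281) and 0.365 (0.337 to 0.394), and in the replicate-block fit of those 2 pairs Nr4a2 fell by 1.74 on the log2 scale in GFPpos cells (SE 0.36, adjusted p = 0.000169). In replicate 1 the direction was the opposite. Set against a chosen floor of 3 counts in the shallow library (9.84 CPM), the GFPpos library was 5.17-fold higher. The lower end of the exact 95% interval of the ratio was 4.19. The call therefore holds for 2 of the 3 pools. The Nr4a2 promoter is shown because Nr4a2 is 1 of the 2 genes called; it covers 250 bases before the start and 50 from it, on the minus strand of chr2:57123954-57124253 (RefSeq, GRCm38.p6). It held none of the 4 motifs searched, which are given with the other promoters at the heat shock genes, and so has no capitals.
Nr4a2: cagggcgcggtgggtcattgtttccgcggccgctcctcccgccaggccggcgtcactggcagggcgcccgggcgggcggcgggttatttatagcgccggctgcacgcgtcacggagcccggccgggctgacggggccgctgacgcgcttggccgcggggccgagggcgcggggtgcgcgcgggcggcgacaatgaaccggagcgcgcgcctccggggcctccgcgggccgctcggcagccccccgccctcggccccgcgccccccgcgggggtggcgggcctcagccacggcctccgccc

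The dual-specificity phosphatases remove phosphate from MAP kinases and so end the signal that induces them. Dusp1, which acts on p38 and JNK in the nucleus, was at 351, 231 and 264 CPM in GFPpos cells, against 115, 425 and 495 CPM in GFPneg cells. GFPneg replicate 1 was the lowest of the 6 and the other GFPneg libraries were the highest, with a log2 fold change of -0.31 (SE 0.48, adjusted p = 1) and of -0.87 (SE 0.32, adjusted p = 0.118) in the block without replicate 1. Dusp5, a nuclear MAP kinase phosphatase, was at 134, 171 and 85.9 CPM in GFPpos cells, against 102, 166 and 191 CPM in GFPneg cells. Dusp6, its cytoplasmic counterpart, was at 424, 456 and 205 CPM in GFPpos cells, against 72.1, 410 and 318 CPM in GFPneg cells. Both were higher in the GFPpos library of replicates 1 and 2 and lower in that of replicate 3. Dusp2, another nuclear phosphatase, was near the detection limit, with 91, 2 and 71 counts in GFPpos cells, against 5, 64 and 22 counts in GFPneg cells.

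Zfp36 (tristetraprolin) and Zfp36l1 bind AU-rich elements and speed the decay of early response mRNAs. Zfp36 was at 731, 841 and 988 CPM in GFPpos cells, against 616, 1406 and 1361 CPM in GFPneg cells. Zfp36l1 was at 794, 874 and 611 CPM in GFPpos cells, against 187, 1002 and 1173 CPM in GFPneg cells. Both were lowest in GFPneg replicate 1 and highest in the other 2 GFPneg libraries, with log2 fold changes of -0.41 (SE 0.40) and -0.06 (SE 0.52), and that of Zfp36l1 was 0.25 with the replicate block. Btg1 and Btg2 encode related antiproliferative proteins that recruit the mRNA deadenylation machinery, and they lay in opposite directions. Btg1 was at 148, 128 and 127 CPM in GFPpos cells, against 32.8, 82.1 and 97.1 CPM in GFPneg cells. Its groups did not overlap, and its log2 fold change of 0.88 (SE 0.46, adjusted p = 1) was the highest of the 39. It had 10 counts in GFPneg replicate 1, and without that library its log2 fold change was 0.60 (SE 0.27, adjusted p = 0.526). Btg2 was at 176, 294 and 271 CPM in GFPpos cells, against 275, 612 and 421 CPM in GFPneg cells. It was lower in all 3 pairs, with a log2 fold change of -0.83 (SE 0.41, adjusted p = 0.996), and of -1.05 (SE 0.30, adjusted p = 0.191) without GFPneg replicate 1. The difference between the Btg1 and Btg2 fold changes was not tested.

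The Klf genes encode zinc finger factors of quiescence and differentiation. Klf4 (chr4:55527143-55532466, mm10) was at 121, 98.6 and 159 CPM in GFPpos cells, against 190, 228 and 326 CPM in GFPneg cells. Every GFPpos library lay below every GFPneg library, with means of 126 ± 30.8 CPM in GFPpos cells and 248 ± 69.8 CPM in GFPneg cells (SD, n = 3 each). The log2 fold change was -0.98 (SE 0.41, adjusted p = 0.843), and -1.11 (SE 0.29, adjusted p = 0.146) without GFPneg replicate 1. The ratio of GFPpos to GFPneg was 0.634 (0.487 to 0.839) in replicate 1, 0.432 (0.405 to 0.460) in replicate 2 and 0.490 (0.466 to 0.514) in replicate 3. In the replicate-block fit without replicate 1 Klf4 fell by 1.10 on the log2 scale (SE 0.32, adjusted p = 0.0215). With all 3 pairs in the block fit its log2 fold change was -0.97 (SE 0.50, adjusted p = 1). Klf2 was at 31.3, 26.3 and 81.3 CPM in GFPpos cells, against 75.4, 98.6 and 70.4 CPM in GFPneg cells, lower in replicates 1 and 2 and higher in replicate 3. Klf6 was at 535, 481 and 443 CPM in GFPpos cells, against 384, 598 and 555 CPM in GFPneg cells, with a log2 fold change of -0.08 (SE 0.37) that was 0.10 under scaling by library size alone. The Klf4 promoter, shown as the other gene called, is the minus strand of chr4:55532426-55532725 (RefSeq, GRCm38.p6) and also held none of the 4 motifs.
Klf4: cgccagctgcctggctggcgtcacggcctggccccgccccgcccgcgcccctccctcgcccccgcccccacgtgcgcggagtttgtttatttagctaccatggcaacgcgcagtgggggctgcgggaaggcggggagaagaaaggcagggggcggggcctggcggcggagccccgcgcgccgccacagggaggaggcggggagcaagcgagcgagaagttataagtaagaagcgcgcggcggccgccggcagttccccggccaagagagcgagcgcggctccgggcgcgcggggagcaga

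Among the other early response genes, Ier2, a nuclear regulator of transcription, was at 114, 71.3 and 106 CPM in GFPpos cells, against 348, 128 and 137 CPM in GFPneg cells. The groups did not overlap, and the highest value was in the shallow library. The log2 fold change of -1.05 (SE 0.47, adjusted p = 0.921) was the lowest of the 39, and without GFPneg replicate 1 it was -0.43 (SE 0.29, adjusted p = 0.782). Ier5, a related protein, was at 172, 151 and 218 CPM in GFPpos cells, against 652, 142 and 146 CPM in GFPneg cells. Its ratio of GFPpos to GFPneg was 0.263 (0.227 to 0.306) in replicate 1, and its log2 ratio was 0.09 in replicate 2 and 0.58 in replicate 3. The log2 fold change of -0.77 (SE 0.54, adjusted p = 1) thus rested on 1 library and was 0.34 (SE 0.27, adjusted p = 0.847) without it. Ier3, which acts in cell survival, was at 268, 291 and 237 CPM in GFPpos cells, against 210, 277 and 203 CPM in GFPneg cells, higher in all 3 pairs with overlapping groups.

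Gadd45b, a stress sensor that activates p38 signalling, was at 122, 76.6 and 111 CPM in GFPpos cells, against 134, 131 and 166 CPM in GFPneg cells. The groups did not overlap, with means of 103 ± 23.8 CPM in GFPpos cells and 144 ± 19.6 CPM in GFPneg cells and a log2 fold change of -0.48 (SE 0.41, adjusted p = 1). Rhob, an inducible small GTPase, was at 102, 134 and 91.8 CPM in GFPpos cells, against 125, 181 and 135 CPM in GFPneg cells. Csrnp1, a nuclear protein induced by Axin1 in human cells, was at 247, 211 and 289 CPM in GFPpos cells, against 266, 263 and 382 CPM in GFPneg cells. Rhob and Csrnp1 were lower in all 3 pairs, with log2 fold changes of -0.43 (SE 0.41) and -0.29 (SE 0.38). Socs3, the feedback inhibitor of JAK-STAT signalling, was at 823, 977 and 744 CPM in GFPpos cells, against 593, 1223 and 1221 CPM in GFPneg cells, with GFPneg replicate 1 again below all GFPpos libraries. As a sum, the 7 genes of this group were at 1849, 1913 and 1796 CPM in GFPpos cells, against 2328, 2345 and 2390 CPM in GFPneg cells. These sums did not overlap, and the sum in the shallow library included the high values of Ier2 and Ier5 there. The sums of the other groups overlapped over 6 libraries, while without GFPneg replicate 1 those of the AP-1, phosphatase, RNA-binding and antiproliferative, and Klf genes also lay wholly lower in GFPpos cells.

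**Figure D3:**
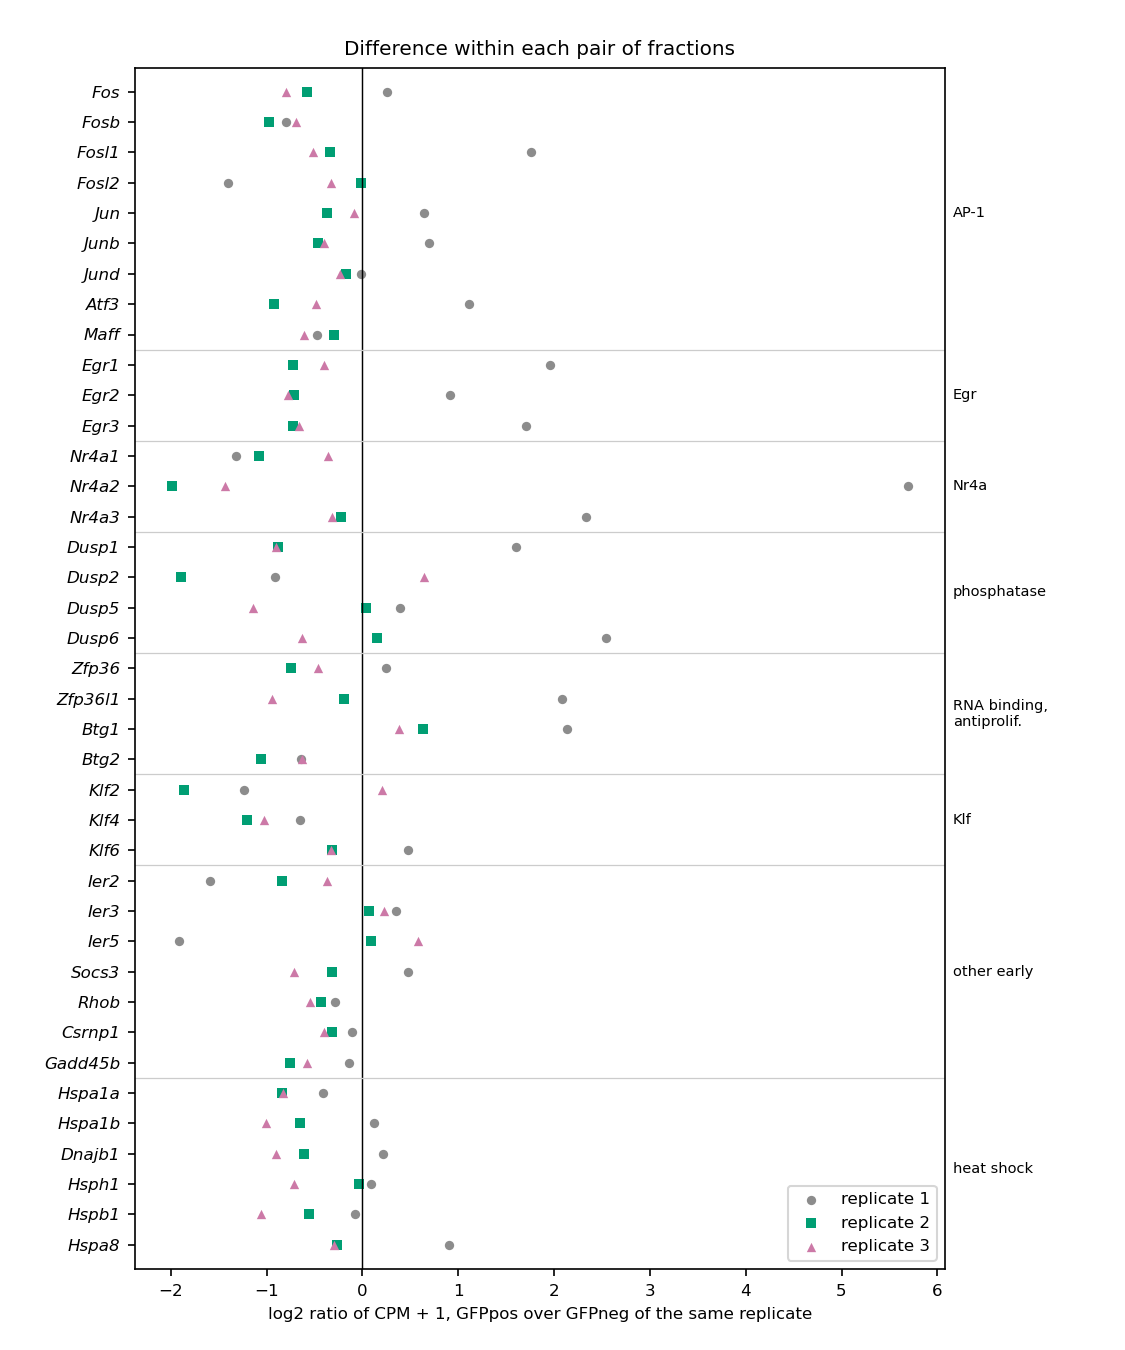
Log2 ratio of CPM + 1, GFPpos over GFPneg of the same replicate, for each of the 39 genes, with replicates 1, 2 and 3 as grey circles, green squares and pink triangles. Replicates 2 and 3 lie left of 0 for 32 genes, and 19 of these lie right of 0 in replicate 1.

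The levels of the heat shock genes varied within each fraction, and the fractions overlapped. Their summed level was 1866, 900 and 997 CPM in GFPpos cells, against 1685, 1260 and 1688 CPM in GFPneg cells. In GFPpos cells the library of replicate 1 stood above the other 2, and in GFPneg cells that of replicate 2 stood below the others. The sum was lower in the GFPpos library of replicates 2 and 3 and higher in that of replicate 1. All 6 genes were lower in GFPpos cells in replicates 2 and 3, with median log2 ratios of -0.58 and -0.87, and 2 of 6, Hspa1a and Hspb1, were lower in replicate 1, where the median was 0.10. None of the 6 passed the test in any fit. The median fitted log2 fold change was -0.36 with 5 of 6 negative, and -0.77 in the block without replicate 1.

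Hspa1a and Hspa1b encode the inducible Hsp70 chaperone and lie side by side on chromosome 17. Hspa1a was at 279, 125 and 173 CPM in GFPpos cells, against 371, 224 and 307 CPM in GFPneg cells. Hspa1b was at 427, 155 and 164 CPM in GFPpos cells, against 393, 245 and 330 CPM in GFPneg cells. The split between them is uncertain, because 61.7% of the 75-base stretches of Hspa1a transcripts and 55.8% of those of Hspa1b also occur in transcripts of other genes, mostly in each other. Their sum was 706, 280 and 336 CPM in GFPpos cells, against 764, 469 and 638 CPM in GFPneg cells. It was lower in the GFPpos library of each pair, although GFPpos replicate 1 exceeded GFPneg replicates 2 and 3. The log2 fold changes were -0.64 (SE 0.42) for Hspa1a and -0.37 (SE 0.45) for Hspa1b, each with an adjusted p of 1, and -0.82 (SE 0.32, adjusted p = 0.176) and -0.81 (SE 0.32, adjusted p = 0.179) in the block without replicate 1.

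The 2 Hsp70 promoters are shown because they are nearly the same sequence. They are the minus strands of chr17:34972107-34972406 for Hspa1a and chr17:34959189-34959488 for Hspa1b (RefSeq, GRCm38.p6), 250 bases before the start and 50 from it, written 5′ to 3′, with the heat shock element core GAANNTTC in capitals. The core begins 104 bases before the start in both. Over 300 bases they differ at 4, written as C44T, T47C, T249G and C276T with the Hspa1a base first and positions counted from 1 at the 5′ end of the window, and are 98.7% identical.
Hspa1a: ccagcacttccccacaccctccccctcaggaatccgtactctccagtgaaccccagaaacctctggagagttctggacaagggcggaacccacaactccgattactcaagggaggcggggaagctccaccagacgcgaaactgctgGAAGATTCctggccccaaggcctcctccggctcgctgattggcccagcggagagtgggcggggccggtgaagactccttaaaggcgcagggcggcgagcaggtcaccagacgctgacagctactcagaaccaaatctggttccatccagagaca
Hspa1b: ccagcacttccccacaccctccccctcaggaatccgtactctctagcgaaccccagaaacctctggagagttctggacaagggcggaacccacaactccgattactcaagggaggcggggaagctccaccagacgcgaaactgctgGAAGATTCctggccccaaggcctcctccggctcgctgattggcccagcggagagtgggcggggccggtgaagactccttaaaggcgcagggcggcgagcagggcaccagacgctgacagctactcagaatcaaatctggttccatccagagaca

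Promoter windows of the same length were found for 34 of the 39 genes. The core GAANNTTC occurred in 6 of 34 (17.6%), Fosl2, Jun, Hspa1a, Hspa1b, Hsph1 and Hspb1, beside 9.04% of 27025 genes with a window. The cAMP response element TGACGTCA occurred in Maff, Dusp1 and Btg2 (8.82%), beside 2.03% of genes. The serum response element core known as the CArG box occurred in Egr2, Dusp5 and Zfp36 (8.82%), beside 1.81%, and the AP-1 motif TGANTCA in Zfp36l1 and Csrnp1 (5.88%), beside 8.97%. Each motif reads the same on both strands, they do not contain each other, and a match describes the letters only.

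Dnajb1, the Hsp40 partner of Hsp70, was at 419, 178 and 218 CPM in GFPpos cells, against 361, 271 and 409 CPM in GFPneg cells. Hsph1, the Hsp110 exchange factor of Hsp70, was at 342, 153 and 186 CPM in GFPpos cells, against 321, 158 and 305 CPM in GFPneg cells. Both had their highest GFPpos level in replicate 1 and their lowest level in both fractions in replicate 2, as Hspa1a and Hspa1b had. Their log2 fold changes were -0.35 (SE 0.42) and -0.20 (SE 0.44), and that of Hsph1 was 0.13 under scaling by library size alone. Hspb1, a small heat shock protein that holds unfolded clients, was at 49.7, 54.2 and 22.3 CPM in GFPpos cells, against 52.5, 80.0 and 47.5 CPM in GFPneg cells. Hspa8, the constitutive Hsc70, was at 350, 234 and 235 CPM in GFPpos cells, against 187, 282 and 288 CPM in GFPneg cells. Hspb1 was lower in all 3 pairs and Hspa8 in 2, with log2 fold changes of -0.52 (SE 0.55) and 0.10 (SE 0.39). The sequence of both is partly shared, since 46.4% of the stretches of Hspb1 and 33.0% of those of Hspa8 occur in other transcripts.

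Sequence or position was shared by other members too. Stretches found in transcripts of another gene made up 50.2% of Fosl1, 50.4% of Zfp36l1, 45.9% of Jund and 19.7% of Dusp5. In 10 of the 39 genes (Fosl1, Jun, Junb, Jund, Dusp1, Dusp5, Zfp36, Zfp36l1, Csrnp1 and Hspa1a) an annotated gene on the other strand overlapped. No source used here states whether the counting used strand, so reads from sequence shared with such a partner cannot be told apart. Shared sequence of any kind was 0% of Dusp1, 2.34% of Zfp36, 2.59% of Csrnp1, 4.74% of Junb and 5.07% of Jun.

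**Figure D4:**
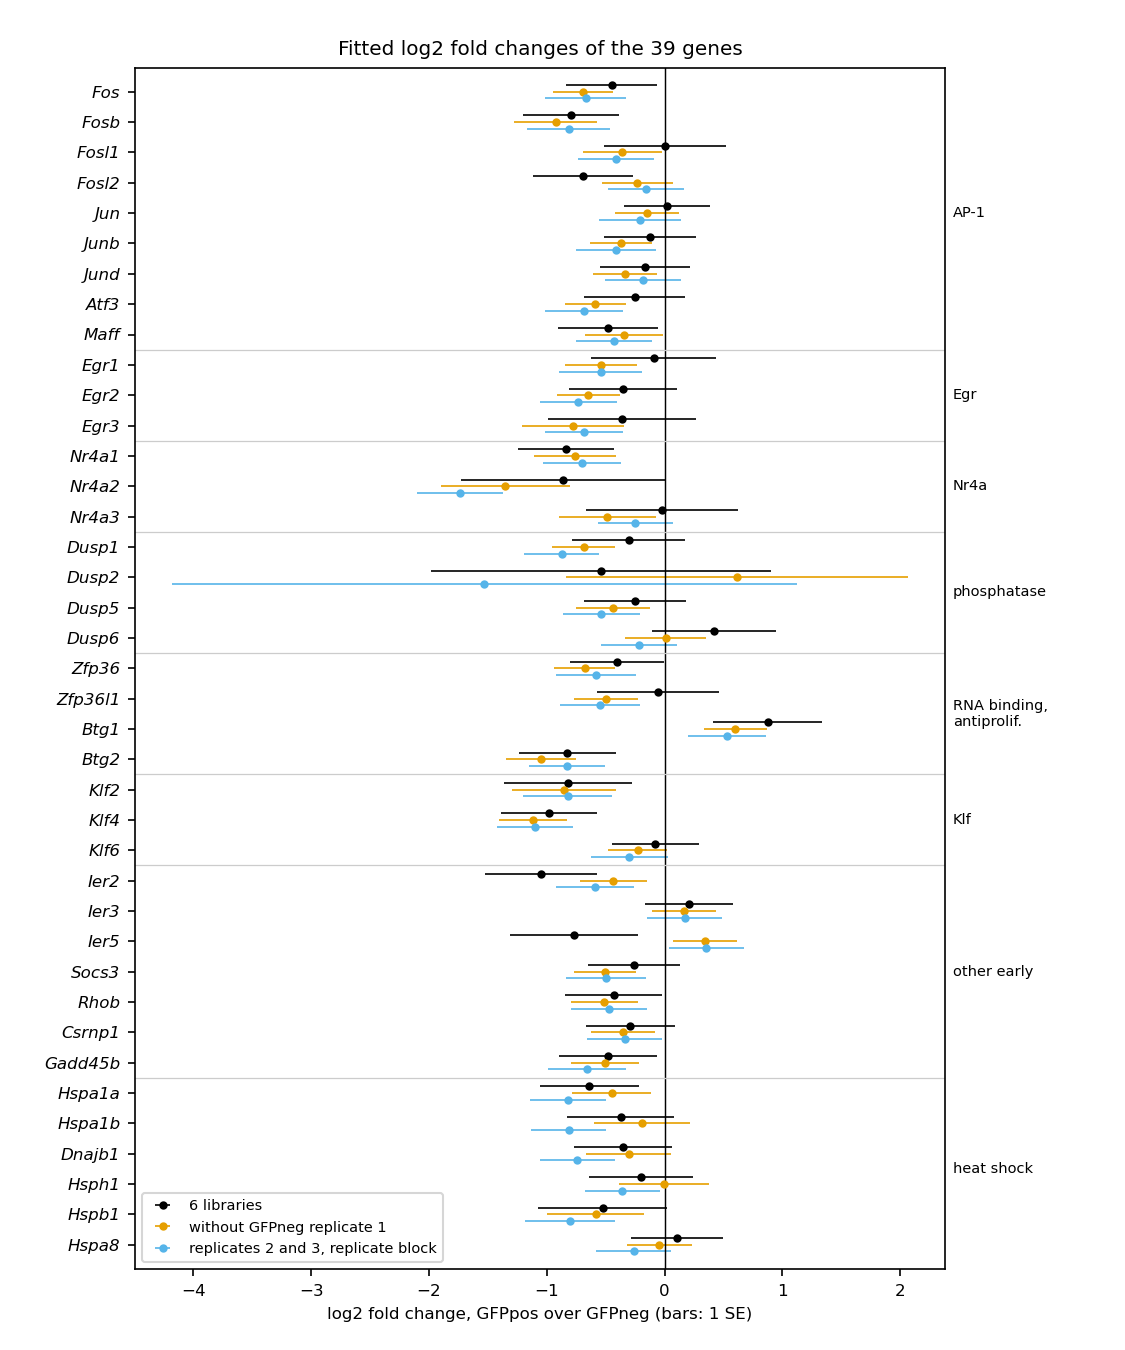
Log2 fold change with SE, GFPpos over GFPneg, of the 39 genes in the edgeR fit of 6 libraries (black), without GFPneg replicate 1 (orange) and in the replicate-block fit of replicates 2 and 3 (blue), with bars of 1 SE. In the fit of 2 pairs 36 genes lie left of 0, and Nr4a2 and Klf4 are the 2 called.

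Other genes of the same pathways were counted as lists. Of 43 further early response genes tested, 19 had a negative log2 fold change over 6 libraries, the median was 0.02, 0 passed the adjusted test in edgeR and 3 had an unadjusted p under 0.05. Over all genes, the background for each of these lists, 42.5% were negative, the median was 0.15, 0.0649% passed and 5.26% had an unadjusted p under 0.05. In the block without replicate 1, 2 of the 43 passed as higher in GFPpos cells and 2 as lower, and the median was -0.26, where 3.92% of all genes were called in either direction, 1.41% were called lower and the median was 0.03. Tnfaip3 (A20), an NF-kappaB inhibitor, was at 329, 323 and 577 CPM in GFPpos cells, against 141, 82.3 and 115 CPM in GFPneg cells. Its log2 fold change was 1.88 (SE 0.42, adjusted p = 0.202) over 6 libraries and 2.07 (SE 0.34, adjusted p = 0.0166) without GFPneg replicate 1. Cxcl1, a neutrophil chemokine and NF-kappaB target, was at 278, 261 and 306 CPM in GFPpos cells, against 49.2, 89.3 and 122 CPM in GFPneg cells. Its log2 fold change was 1.66 (SE 0.43, adjusted p = 0.350), and 1.43 (SE 0.28, adjusted p = 0.0424) without that library. For both genes every GFPpos library lay above every GFPneg library, and in the block without replicate 1 both rose, with adjusted p-values of 1.25e-08 and 0.000534.

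Errfi1, a feedback inhibitor of EGF receptor signalling, was at 320, 255 and 403 CPM in GFPpos cells, against 302, 572 and 866 CPM in GFPneg cells. Ier5l, an Ier family member, was at 39.1, 22.3 and 22.3 CPM in GFPpos cells, against 49.2, 42.1 and 82.6 CPM in GFPneg cells. These were the 2 called lower in the block without replicate 1, with adjusted p-values of 0.0230 and 0.0258. Ctgf, a matricellular protein and YAP target, was at 283, 472 and 268 CPM in GFPpos cells, against 449, 788 and 613 CPM in GFPneg cells, lower in each pair with a log2 fold change of -0.86 (SE 0.40, adjusted p = 0.938).

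Of 18 upstream kinases and transcription factors of these pathways, 4 had a negative log2 fold change, the median was 0.29, and 0 passed the test or had an unadjusted p under 0.05. In the block without replicate 1 the median was 0.21 for these 18 genes and 0.03 over all genes. Hsf1, the master regulator of the heat shock genes, was at 37.1, 29.9 and 31.1 CPM in GFPpos cells, against 0, 27.1 and 13.1 CPM in GFPneg cells, where 0 is below the floor of the shallow library. Its log2 fold change without that library was 0.71 (SE 0.44, adjusted p = 0.739). Elk3 and Elk4, serum response factor partners, had log2 fold changes of 0.67 (SE 0.53) and -0.43 (SE 0.45). Without the shallow library they were 0.52 (SE 0.33) and -0.05 (SE 0.31). Of 21 other chaperones 6 had a negative log2 fold change and the median was 0.34, or 0.06 in the block without replicate 1. Over 6 libraries 0 of the 21 passed and 1 had an unadjusted p under 0.05. That gene was Hspa4l, an Hsp110 family member, at 53.1, 29.1 and 41.3 CPM in GFPpos cells, against 0, 16.5 and 9.84 CPM in GFPneg cells. Its log2 fold change was 1.99 (SE 0.79, adjusted p = 0.839), and 1.65 (SE 0.45, adjusted p = 0.174) without GFPneg replicate 1. Hspa14, Hspe1 and Dnajb6, also chaperones or co-chaperones, had log2 fold changes of 1.18 (SE 0.70), 1.30 (SE 0.80) and -1.68 (SE 1.05), each with an adjusted p of 1. Dnajb6 was at 68.9, 7.44 and 3.55 CPM in GFPneg cells, so its negative value rested on the shallow library. Without GFPneg replicate 1 the log2 fold changes of the 3 genes were 1.09 (SE 0.47), 1.10 (SE 0.75) and 0.40 (SE 0.84).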

How the data were processed

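Total RNA of sorted cells was sequenced as paired reads of 75 bases, per the labels' protocols. The deposited values are whole-number counts per gene symbol, which the authors made with FastQC, cutadapt, TopHat2 and HTSeq against mm10, per the submitters' processing notes. Of versions, strandedness and counting mode nothing is stated (not given in the sources used here). HTSeq's summary lines were left out; reads on no feature made up 28.8% to 66.4% of a library, most in GFPneg replicate 1, and ambiguous reads 0.390% to 2.07%.

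Counts were filtered with filterByExpr, scaled by TMM and tested with edgeR 4.0.16 (R 4.3.3, limma 3.58.1) by the quasi-likelihood F test of GFPpos against GFPneg, with Benjamini-Hochberg adjustment over all genes tested. The SE is the unshrunk log2 fold change over the square root of F. Log2 pair ratios used CPM with a pseudocount of 1. Pair ratios not on the log2 scale used CPM without it, and their intervals are exact binomial and cover counting error only. TMM factors were 0.501 in GFPneg replicate 1 and 1.05 to 1.22 in the others. DESeq2 1.42.0, a replicate block, other scalings, no filter and each replicate left out were tried as alternatives. The edgeR fit of 6 libraries, that fit with the replicate block, and DESeq2 without a block were run on simulated data. The fits that leave out a library or replicate were not. Per the design text, the GFPpos and GFPneg cells with the same number shared a pool, which pairs the samples; their deviations from the group means correlated at -0.04, 0.12 and -0.0013 in replicates 1, 2 and 3.

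The 39 genes, the further lists and the tests were chosen with earlier results of these data known. All 39 are given, and of each further list the 4 genes with the smallest p, with Ier5l added after its values were seen; 1 gene that the rule names is not reported here. Exon lengths, coordinates and overlaps come from GENCODE M21 (mm10), and promoter sequences from RefSeq (GRCm38.p6). Fosl1, Egr1, Egr3, Ier2 and Hspa8 had no entry in the promoter table.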

Additional observations from a re-analysis of the deposited data

How the results depend on the processing

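Over 17 other fits, 21 of the 39 genes kept their direction, 19 as negative and 2, Btg1 and Ier3, as positive, and 18 turned in at least 1. The median log2 fold change of the 39 genes was negative in every one of these fits, and no member was called except in the replicate block without replicate 1, which called 2. Counts over all genes moved with the pairing by pool, the tool, the filter and the libraries used. The 6 libraries gave 8 genes higher in GFPpos cells and 1 lower. The replicate block gave 43 higher and 18 lower, the replicate block without replicate 1 gave 386 and 216, DESeq2 gave 46 and 46, and DESeq2 with the replicate block 89 and 57. Scaling by library size alone gave 5 higher, no filter on low counts 65 higher and 236 lower, and leaving out libraries or replicates 2 to 63 higher and 1 to 68 lower. Scaling by library size alone also left 5 of the 39 genes lower in replicate 1, with a median log2 ratio of 1.31.

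Direction turned for single genes, and the cause was not tested. In the replicate block without replicate 1 the log2 fold changes were -0.41 for Fosl1, -0.21 for Jun, -0.22 for Dusp6, 0.36 for Ier5 and -0.26 for Hspa8. With library size alone they were 0.022 for Junb, 0.035 for Jund, 0.063 for Nr4a3, 0.10 for Klf6 and 0.13 for Hsph1. With the replicate block they were 0.22 for Egr1, 0.45 for Nr4a3 and 0.25 for Zfp36l1, and with DESeq2 and the block 0.20, 0.46 and 0.23 for the same genes. Nr4a3 was at 0.015 in DESeq2 and at 0.0042 with no filter. Leaving out libraries or replicates gave -0.43 to 0.67 for Fosl1, -0.22 to 0.26 for Jun, -0.41 to 0.12 for Junb, -0.33 to 0.035 for Jund, -0.68 to 0.14 for Atf3, -0.54 to 0.43 for Egr1, -0.82 to 0.59 for Egr3, -1.56 to 0.37 for Nr4a2, -0.51 to 0.92 for Nr4a3, -0.87 to 0.086 for Dusp1, -1.61 to 0.62 for Dusp2, -0.49 to 0.17 for Dusp5, -0.12 to 0.86 for Dusp6, -0.53 to 0.48 for Zfp36l1, -0.30 to 0.058 for Klf6, -1.28 to 0.38 for Ier5, -0.59 to 0.063 for Hsph1 and -0.26 to 0.31 for Hspa8. Depth limits replicate 1, where the chosen floor of 3 counts stands at 9.84 CPM in the GFPneg library.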
